A study of Mus musculus with 23 samples.

Results

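The miR-181 family was followed through 23 small RNA libraries of mouse retina. Its members were taken by name: all 6 mature rows of the deposited count matrix whose locus name starts with mir-181 (mir-181a-1, mir-181a-2, mir-181b-1, mir-181b-2, mir-181c and mir-181d), of 903 mature rows in all. Every retina was collected on postnatal day 90, and each library holds 1 retina. The groups are wild-type (WT) C57B retinas (2 libraries, 2 mice, untreated) and 4 groups of P23H+/- KI mice, which carry 1 knock-in copy of the P23H rhodopsin allele beside 1 normal copy. These P23H mice were uninjected (5 libraries, 3 mice), injected with saline (2 libraries, 1 mouse), treated with the human rhodopsin gene (human gRHO, 3 libraries, 2 mice) or treated with the mouse rhodopsin gene (mouse gRho, 11 libraries, 7 mice). All 4 P23H groups share the P23H allele, so the knock-in and the C57B strain label differ together in every comparison with WT. Mice were told apart by reading the sample titles as mouse and eye, which is an inference, and the 2 WT libraries were counted as 2 mice.

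The miR-181 family is among the classical miRNA families of vertebrate neural retina, where it is known from cells of the inner layers (amacrine and ganglion cells) rather than from photoreceptors. A miRNA hairpin is cut to a short duplex, and 1 arm is loaded into Argonaute, where the seed at its 5′ end pairs with target mRNAs. miR-181a and miR-181b have been studied in retinal axon growth and in mitochondrial turnover of photoreceptors in inherited retinal degeneration. A bulk retina library does not tell in which cells a miRNA was made, and fewer cells of a type and less RNA per cell cannot be told apart in it.

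The mature sequences are shown because the family is defined by a shared seed and because copies at different loci yield the same 5p miRNA. They are RefSeq records on the mouse assembly GRCm38.p6, in which all 6 loci were found, and capitals mark the seed (bases 2 to 8).
mmu-miR-181a-5p: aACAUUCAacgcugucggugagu
mmu-miR-181b-5p: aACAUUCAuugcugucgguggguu
mmu-miR-181c-5p: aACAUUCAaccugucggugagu
mmu-miR-181d-5p: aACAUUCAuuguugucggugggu

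All 4 of the 5p sequences carry the seed ACAUUCA, and among the 1679 mature mouse miRNAs of that table these 4 alone carry it. mmu-miR-181a-5p is the same molecule from mir-181a-1 and mir-181a-2, and mmu-miR-181b-5p is the same molecule from mir-181b-1 and mir-181b-2. miR-181b-5p and miR-181d-5p differ, over the 23 bases they share in length, by the substitution C12U alone (counted from the 5′ end). The 3p sequences, in contrast, tell the copies apart and are shown for that reason.
mmu-miR-181a-1-3p: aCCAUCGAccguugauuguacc
mmu-miR-181a-2-3p: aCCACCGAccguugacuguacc
mmu-miR-181b-1-3p: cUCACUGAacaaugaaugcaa
mmu-miR-181b-2-3p: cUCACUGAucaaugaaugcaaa
mmu-miR-181c-3p: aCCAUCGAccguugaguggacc
mmu-miR-181d-3p: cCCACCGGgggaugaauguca

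Between the 3p sequences of mir-181a-1 and mir-181a-2 the substitutions are U5C and U16C, and the first of these lies in the seed, so the seeds are CCAUCGA and CCACCGA. miR-181c-3p has the seed of miR-181a-1-3p (CCAUCGA), and the 3p sequences of mir-181b-1 and mir-181b-2 share the seed UCACUGA. miR-181d-3p has the seed CCACCGG, which no other mature miRNA of the table has. Each deposited row is named for a locus, and the arm is not part of the name. A row named mir-181a-2 can therefore hold reads of the shared 5p sequence, of its own 3p sequence or of both, and rows of copies with an identical 5p sequence are uncertain as separate measurements.

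The 6 loci form 3 neighbouring pairs, each on 1 strand. mir-181a-1 and mir-181b-1 lie on the plus strand of chromosome 1 in GRCm38 (GENCODE vM21), inside an intron of the noncoding transcript Gm4258 on the same strand. There mir-181b-1 is contained in an exon of the lincRNA A430106G13Rik, and mir-181a-1 overlaps that exon in part. mir-181a-2 and mir-181b-2 lie on the plus strand of chromosome 2, within an intron of Nr6a1, which encodes an orphan nuclear receptor and is transcribed from the opposite strand. mir-181c and mir-181d lie on the minus strand of chromosome 8, in an intron of Nanos3, which encodes an RNA-binding protein of the germ line and has the same orientation. These chromosome 1, 2 and 8 pairs are the units used below. Coordinates are left out, since the build behind the deposited counts is not named in the labels.

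The libraries held between 13343665 and 22494214 reads of at least 15 bases, of which 5968388 to 16048954 were counted as mature miRNA (median 9939390). Levels below are reads per 1000000 of these mature miRNA reads (CPM). The 903 mature rows add up to 10.4% to 19.5% of that total in each library (median 13.4%), so a CPM value is a part of a row sum that covers a minority of the mature reads. In 6 libraries, called rRNA-rich below, rRNA made up 3.00% to 6.20% of aligned reads, and in the other 17 it made up 0.201% to 0.878%. The rRNA-rich libraries are uninjected mouse 2 left eye, both eyes of uninjected mouse 3, and the left eye of mouse gRho mouse 2, right eye of mouse 3 and left eye of mouse 6. 2 libraries, uninjected mouse 2 left eye and mouse gRho mouse 1 right eye, had the lowest summed levels of photoreceptor and of neuronal miRNAs among all 23. In this order, and counted from the lowest, they ranked 22 and 23 for endothelial and mural miRNAs. They ranked 21 and 23 for surface epithelium, lens and cornea, 19 and 23 for leukocyte and 23 and 18 for muscle miRNAs. Ranks were 19 and 15 for red blood cell and 10 and 14 for pigment epithelium and Mueller glia miRNAs.

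In level, the family was led by the 2 miR-181a rows. mir-181a-2 ranked 35 and mir-181a-1 ranked 46 by mean CPM among the 903 rows, with medians over libraries of 197 CPM and 149 CPM. The 3 low rows, mir-181c (median 16.3 CPM, rank 136), mir-181b-1 (14.8 CPM, rank 149) and mir-181b-2 (5.97 CPM, rank 194), lay far below them. The mature products are 21 to 24 bases long, and no correction for length was made. In reads, the libraries held 1065 to 3239 of mir-181a-2, 615 to 2251 of mir-181a-1, 59 to 238 of mir-181c, 53 to 275 of mir-181b-1 and 30 to 114 of mir-181b-2, so the last had the fewest reads. Neighbours in this order overlapped across libraries, apart from the gap between mir-181a-1 (69.7 to 197 CPM) and mir-181c (3.68 to 26.5 CPM). mir-181d (rank 82, by a mean over both its levels) stood at either of 2 levels far apart, and is described on its own below. It held 247 CPM in WT mouse 2, above both miR-181a rows there, and 0.622 CPM or less at its low level.

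**Figure D1:**
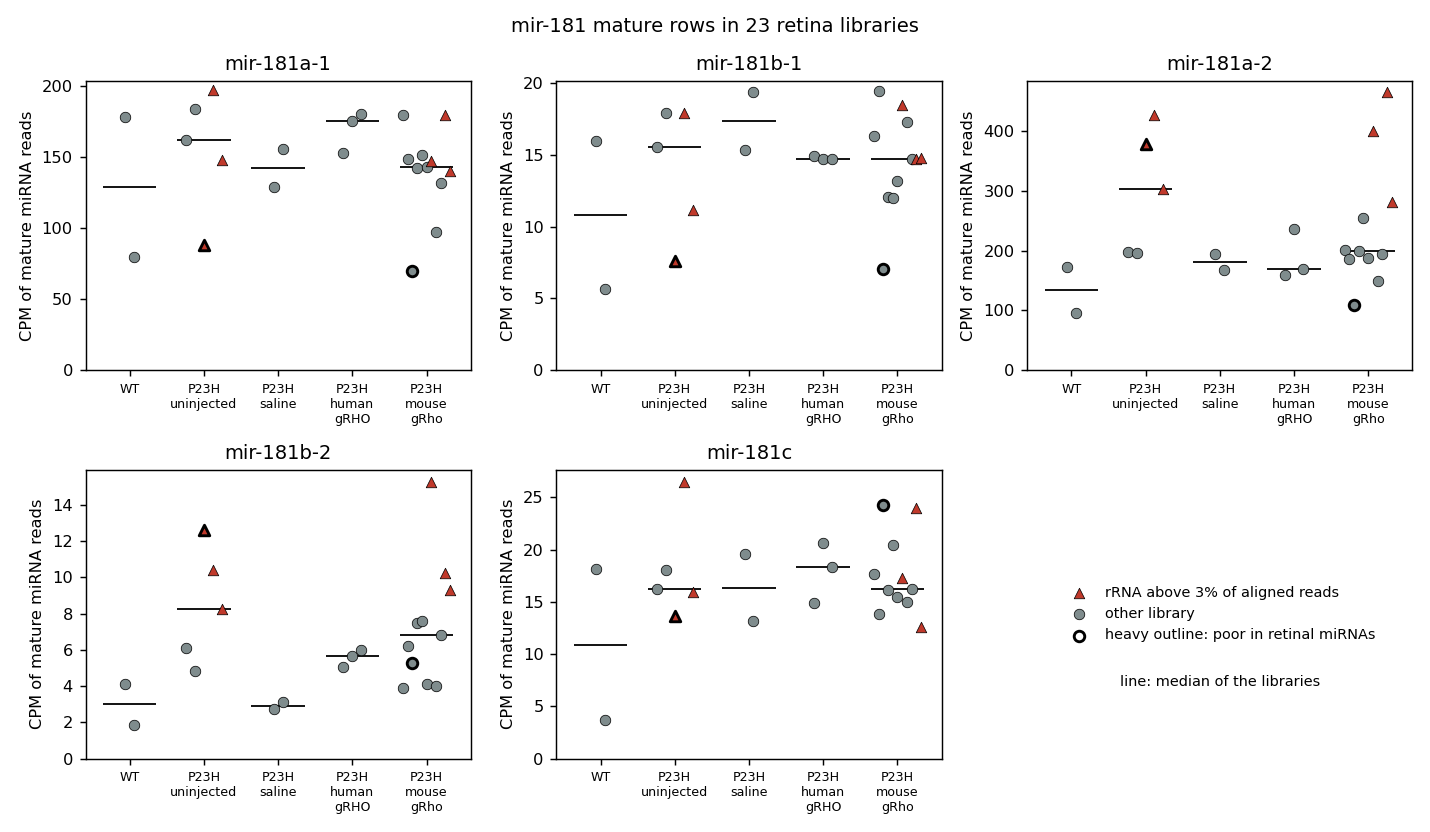
CPM of mature miRNA reads (y axis, linear from 0) of the 5 mir-181 rows with 1 level, by group, 1 point per library; lines are group medians, triangles are the 6 rRNA-rich libraries, and heavy outlines mark the 2 libraries poor in retinal miRNAs. The triangles lie above all other points for mir-181a-2 (281 CPM and more) and mir-181b-2 (8.25 CPM and more), and are mixed with them in the other 3 panels.

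Uninjected P23H retinas were set against WT retinas to ask what the P23H allele changes. No mir-181 row passed the test. mir-181a-2 was at 95.3 and 173 CPM in the 2 WT mice and at 197, 364 and 379 CPM in the 3 uninjected mice. The means were 134 ± 54.6 (SD, n = 2) and 313 ± 101 (SD, n = 3) CPM. The difference did not pass: the log2 fold change was 0.80 (SE 0.38, adjusted p = 0.299, edgeR). mir-181b-2, its neighbour on chromosome 2, was at 1.87 and 4.15 CPM in WT and at 5.47, 9.31 and 12.6 CPM in uninjected mice. Its log2 fold change was 1.19 (SE 0.52, unadjusted p = 0.0347, adjusted p = 0.266).

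The other 3 rows had log2 fold changes of smaller size between WT and uninjected mice. mir-181a-1 was at 79.8 and 178 CPM in WT and at 88.1, 172 and 172 CPM in uninjected mice (log2 fold change -0.20, SE 0.32). mir-181b-1 was at 5.67 and 16.0 CPM in WT and at 7.59, 14.5 and 16.7 CPM in uninjected mice (log2 fold change -0.06, SE 0.38). For both chromosome 1 rows, 1 WT and 1 uninjected mouse were low and the rest were close together. mir-181c was at 3.68 and 18.1 CPM in WT and at 13.6, 17.1 and 21.1 CPM in uninjected mice (log2 fold change 0.35, SE 0.38).

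Of the 5 mir-181 rows tested, edgeR called 0 and DESeq2 called 0; without adjustment 1 of them, mir-181b-2, had a p under 0.05. Over all 382 rows tested, 1.57% were called (6 rows), and 63 had such a p without adjustment. The median log2 fold change was 0.35 over the 5 mir-181 rows and -0.09 over all rows. WT mouse 2, a left eye, was lowest of all 23 libraries for mir-181a-2, mir-181b-1, mir-181b-2 and mir-181c. The library was low for other rows too. From the lowest, it ranked 1 of 23 for summed pigment epithelium and Mueller glia, muscle, and surface epithelium, lens and cornea miRNAs. For the other marker lists below it ranked 3 to 5. Its TMM scaling factor in the fit was 0.734, against 0.964 for WT mouse 1. CPM values are given without this factor. The value of mir-181c changed with the WT mouse used. Leaving out WT mouse 1 leaves the library of WT mouse 2 as the WT group and takes the spread from the other groups. The log2 fold change of mir-181c was then 1.70. Without WT mouse 2 it stood at -0.24.

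The chromosome 2 rows differed between rRNA-rich and other libraries. In the uninjected group mir-181a-2 was at 197 CPM in both eyes of mouse 1, whose libraries are not rRNA-rich, and at 379, 427 and 304 CPM in the 3 rRNA-rich libraries of mice 2 and 3. Leaving out the 6 rRNA-rich libraries, after which uninjected mouse 1 alone stands for its group, took mir-181a-2 to a log2 fold change of 0.26 (SE 0.36) against WT. A term for rRNA-rich libraries, in a fit of the 23 libraries in place of mice, took it to 0.14 (SE 0.32). Eyes of a mouse count separately in that fit, so its SE is not like that of the fits of mice. In the same order, mir-181b-2 went to 0.59 (SE 0.52) and 0.48 (SE 0.36). With the same 6 libraries left out, mir-181a-1 stood at 0.14 and mir-181b-1 at 0.37, so the rows of chromosomes 1 and 2 no longer differed in sign. How far the rRNA share takes part in the differences of mir-181a-2 and mir-181b-2 from WT was not tested.

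Among the marker lists measured beside the family, the 3 photoreceptor rows (mir-183, mir-182 and mir-96) were all lower in uninjected than in WT mice (median log2 fold change -1.02) and 0 of 3 passed. Of the 14 neuronal loci (the mir-124, mir-9, mir-128, mir-138 and mir-7a copies with mir-132 and mir-212), 12 could be tested. All 12 were lower in uninjected mice, with a median of -0.38 and 0 calls. 1 of the 3 uninjected mice, mouse 2, has only the library that is poor in photoreceptor and neuronal miRNAs. The muscle rows had a median of 1.07 (0 of 2 called) and the surface epithelium, lens and cornea rows a median of 0.27 (0 of 7 called). Medians were 0.37 for pigment epithelium and Mueller glia (0 of 2 called) and 0.27 for red blood cell rows (0 of 2 called). They were -0.02 for leukocyte (0 of 3 called) and -0.16 for endothelial and mural rows (0 of 3 called). The part of these cell types in the mir-181 values was not tested.

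**Figure D2:**
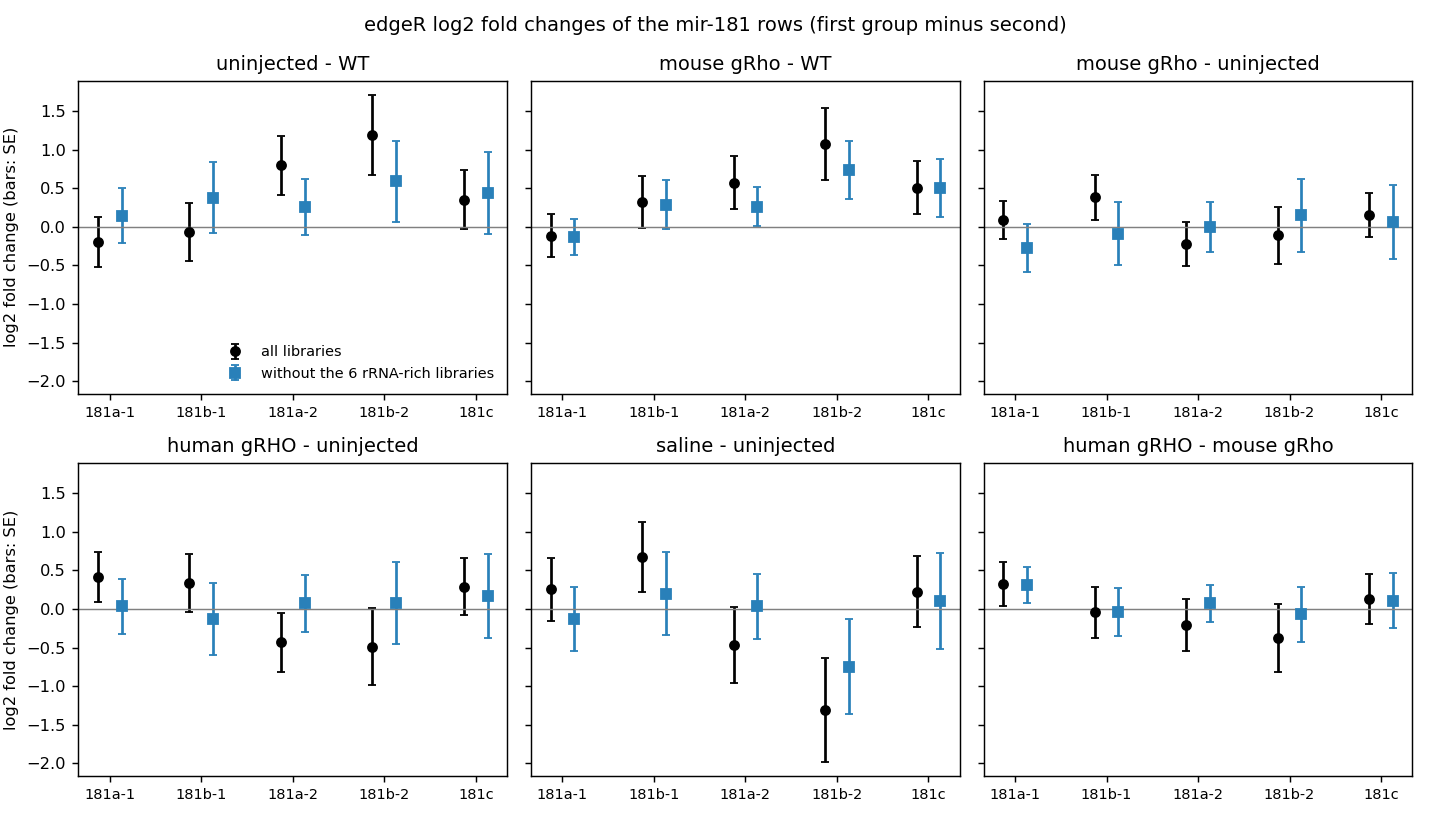
edgeR log2 fold changes (y axis, bars are SE) of the 5 mir-181 rows with 1 level in 6 group comparisons, with all libraries (circles) and without the 6 rRNA-rich libraries (squares). Against WT the circles of mir-181b-2 stand highest, at 1.19 in uninjected and 1.07 in mouse gRho mice, and the squares of mir-181a-2 and mir-181b-2 are nearer to 0 than their circles.

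The treated groups were compared with uninjected P23H mice to ask what treatment changes. The gene and its delivery differ together between the gene groups and uninjected mice. Neither gene group was compared with saline, so gene and delivery cannot be told apart. These comparisons share the 3 uninjected mice. No row passed in any of them: edgeR called 0 of the 5 mir-181 rows, beside 0.0% of the 382 rows in the mouse gRho comparison, 0.0% in that of human gRHO and 0.0% in that of saline. DESeq2 also called 0 of the 5. Without adjustment, 0 of the 5 rows had a p under 0.05, beside 18, 10 and 13 of all rows in the 3 comparisons. In mouse gRho mice mir-181a-2 ran from 149 to 400 CPM with a median of 222 CPM (mean 231 ± 86.1, SD, n = 7). This range covers that of the uninjected mice, and the log2 fold change was -0.22 (SE 0.28, interval of 2 SE -0.78 to 0.34). mir-181b-2 ran from 4.0 to 15.3 CPM with a median of 7.17 CPM, and its log2 fold change was -0.11 (SE 0.37, interval -0.85 to 0.62).

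The chromosome 1 rows of mouse gRho mice lay in a narrower band. mir-181a-1 ran from 97.2 to 158 CPM (median 141 CPM) and mir-181b-1 from 11.7 to 18.5 CPM (median 13.5 CPM). Their log2 fold changes against uninjected mice were 0.09 (SE 0.25, interval -0.41 to 0.58) and 0.38 (SE 0.29, interval -0.20 to 0.96). mir-181c ran from 14.6 to 20.9 CPM, with a log2 fold change of 0.15 (SE 0.28, interval -0.41 to 0.72). For each of the 5 rows the interval includes 0, and it is wide enough that a change of 0.34 on the log2 scale lies inside it in at least 1 direction.

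In the 2 human gRHO mice mir-181a-2 stood at 164 and 235 CPM, mir-181a-1 at 166 and 175 CPM, and mir-181b-1 at 14.7 and 14.8 CPM. mir-181b-2 stood at 5.51 and 5.65 CPM and mir-181c at 16.7 and 20.6 CPM. Against uninjected mice the fit gave log2 fold changes of -0.43 (SE 0.38) for mir-181a-2 and -0.49 (SE 0.50) for mir-181b-2. They were 0.41 (SE 0.32) for mir-181a-1, 0.34 (SE 0.37) for mir-181b-1 and 0.29 (SE 0.37) for mir-181c. None of the human gRHO libraries is rRNA-rich, and without the rRNA-rich libraries of the other groups mir-181a-2 stood at 0.07 and mir-181b-2 at 0.08.

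Of the neuronal rows tested beside the family, 11 of 12 were higher in mouse gRho than in uninjected mice (median log2 fold change 0.29) and 10 of 12 were higher in human gRHO mice (median 0.44), with 0 calls in either. The 3 photoreceptor rows had medians of 0.33 and 0.80 and 0 calls. Uninjected mouse 2, whose library is poor in retinal miRNAs, was also the lowest uninjected mouse for mir-181a-1 and mir-181b-1. Without both libraries poor in retinal miRNAs, mir-181a-1 stood at -0.10 in mouse gRho against uninjected mice. The part of retinal cell content in these values was not tested.

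The saline mouse held 194 CPM of mir-181a-2 in its right and 167 CPM in its left eye. With both eyes summed it held 142 CPM of mir-181a-1, 17.3 CPM of mir-181b-1, 16.5 CPM of mir-181c and 2.93 CPM of mir-181b-2. Its mir-181b-2 level lay below all 3 uninjected mice and between the 2 WT mice. The log2 fold change of mir-181b-2 against uninjected mice was -1.31 (SE 0.67, unadjusted p = 0.0679, adjusted p = 0.910), and it was -0.75 (SE 0.61) without the rRNA-rich libraries. As saline has 1 mouse, the test assumes that this mouse varies like the others.

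Mouse gRho mice were also set against WT mice. Again edgeR and DESeq2 each called 0 of the 5 mir-181 rows, beside 3.14% of the 382 rows called (12 rows). Without adjustment 1 of the 5 (mir-181b-2) and 69 of all rows had a p under 0.05. mir-181b-2 had the largest of the 5 log2 fold changes, at 1.07 (SE 0.47, adjusted p = 0.257), and 5 of the 7 mouse gRho mice were above the higher WT value of 4.15 CPM. mir-181a-2 stood at 0.57 (SE 0.34), mir-181c at 0.51 (SE 0.34), mir-181b-1 at 0.32 (SE 0.34) and mir-181a-1 at -0.11 (SE 0.28). Without the rRNA-rich libraries mir-181b-2 stood at 0.74 (SE 0.38) and mir-181a-2 at 0.26 (SE 0.25). mir-181c depended on the WT mouse here too: its log2 fold change was 1.82 without WT mouse 1 and -0.11 without WT mouse 2. In both cases WT is 1 library, assumed to vary like the other groups.

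Both gene constructs were compared with each other, and edgeR and DESeq2 each called 0 of the 5 rows, beside 0.0% of the 382 rows. Without adjustment, 0 of the 5 and 11 of all rows had a p under 0.05. The difference, human gRHO minus mouse gRho, ran from -0.37 (SE 0.44) for mir-181b-2 to 0.32 (SE 0.28) for mir-181a-1, with mir-181a-2 at -0.21 (SE 0.33), mir-181b-1 at -0.04 (SE 0.33) and mir-181c at 0.13 (SE 0.32). The interval of 2 SE for mir-181a-2, -0.88 to 0.46, leaves differences of that size in either direction possible. Doses of the constructs are not given in the labels. Summed over the 5 rows, the family stood at 288 ± 143 CPM in WT (SD, n = 2), 497 ± 86.3 in uninjected (n = 3), 359 in saline (n = 1), 410 ± 59.2 in human gRHO (n = 2) and 406 ± 105 in mouse gRho mice (n = 7). The WT mice stood at 186 and 389 CPM, and these sums are without the scaling factors of the fits.

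A division within the family followed the rRNA-rich libraries. These belong to uninjected (3 libraries) and mouse gRho mice (3 libraries), and WT, saline and human gRHO have 0, so those groups do not show it. The chromosome 2 rows, mir-181a-2 and mir-181b-2, were higher in every rRNA-rich library than in any other library, while mir-181a-1, mir-181b-1 and mir-181c were not. This comparison was added after the values were seen. mir-181a-2 ran from 281 to 466 CPM (median 389 CPM) in the 6 rRNA-rich libraries and from 95.3 to 255 CPM (median 187 CPM) in the other 17. mir-181b-2 ran from 8.25 to 15.3 CPM (median 10.3 CPM) against 1.87 to 7.61 CPM (median 5.04 CPM).

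The remaining rows overlapped widely. mir-181a-1 ran from 88.1 to 197 CPM (median 148 CPM) in rRNA-rich libraries and from 69.7 to 184 CPM (median 151 CPM) in the others. mir-181b-1 had medians of 14.8 and 14.9 CPM, and mir-181c of 16.6 and 16.3 CPM. For each of these 3 rows the medians of both sets of libraries lay close together.

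**Figure D3:**
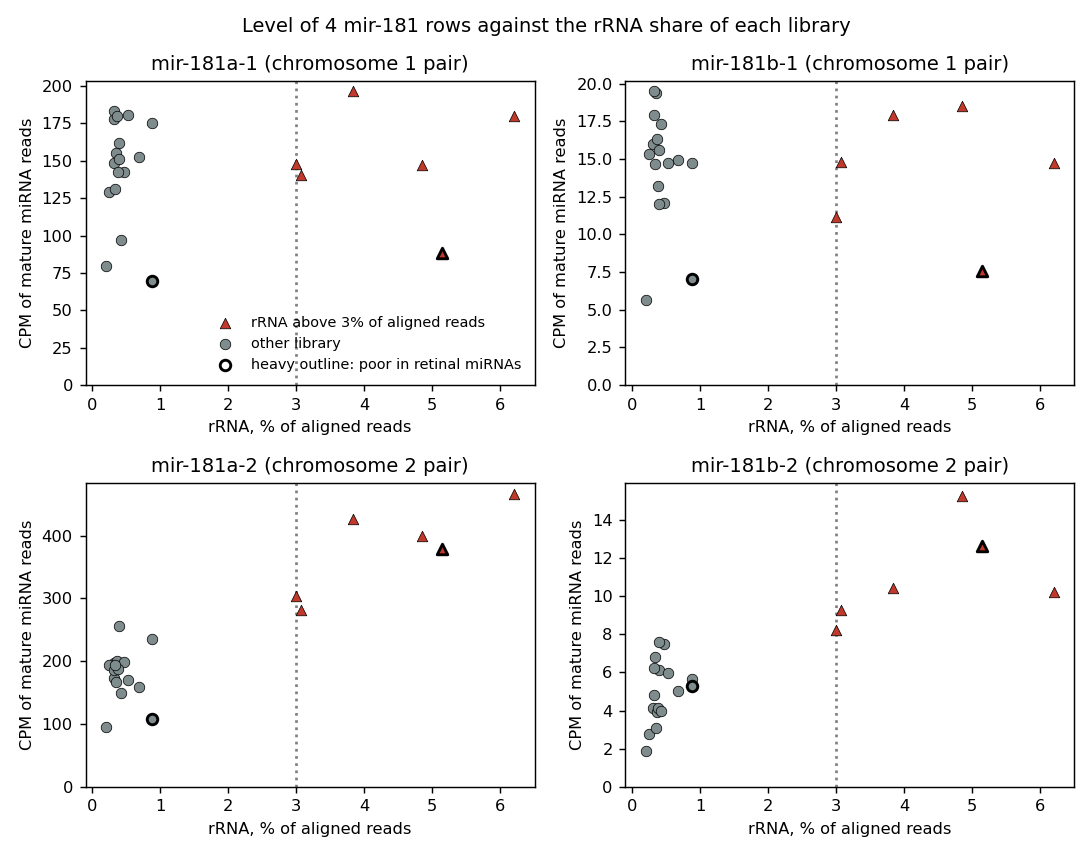
CPM of mature miRNA reads (y axis) of the chromosome 1 pair (top) and the chromosome 2 pair (bottom) against rRNA as a percentage of aligned reads (x axis), 1 point per library; the dotted line is the 3% threshold. To the right of the line mir-181a-2 is at 281 CPM or more and mir-181b-2 at 8.25 CPM or more, and to its left they do not exceed 255 and 7.61 CPM; mir-181a-1 and mir-181b-1 span the same range on both sides.

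In an edgeR fit of the 23 libraries with a term for the group, mir-181a-2 was 1.93-fold higher in rRNA-rich libraries (log2 0.95, SE 0.19, adjusted p = 0.00377). mir-181b-2 was 1.94-fold higher (log2 0.95, SE 0.21, adjusted p = 0.00672). The 3 other rows stood at 0.00 (SE 0.21) for mir-181a-1, -0.10 (SE 0.23) for mir-181b-1 and 0.03 (SE 0.21) for mir-181c. Over all 348 rows tested, 2.59% were called (9 rows, all higher), and the 7 called rows outside the family were mir-34c, mir-375, mir-3078, mir-6240, mir-582, mir-6538 and mir-135a-2. Of the 348 rows, 1.15% (4 rows, of which 2 are mir-181a-2 and mir-181b-2) were higher in every rRNA-rich library than in any other library. Eyes of 1 mouse count here as separate libraries, so these p-values are too small where eyes of a mouse are alike. The split was also added after the values were seen, so the p-values of mir-181a-2 and mir-181b-2 are no independent test of it.

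2 mice had 1 rRNA-rich eye and 1 other eye, and both belong to mouse gRho. In mouse 2 the rRNA-rich left eye held 466 CPM of mir-181a-2 and the right eye 185 CPM, with 10.2 against 6.23 CPM of mir-181b-2. In mouse 3 the rRNA-rich right eye held 281 CPM of mir-181a-2 and the left eye 199 CPM, with 9.29 against 7.49 CPM of mir-181b-2. mir-181a-1 stood at 180 against 149 CPM in mouse 2 and at 140 against 142 CPM in mouse 3. Both chromosome 2 rows were higher in the rRNA-rich eye of both mice, as follows from the separation of all libraries. The same held for 27.3% of the 348 rows. With the mouse as a block, in place of the group, only these 2 mice inform the difference. It was then 0.87 for mir-181a-2 (SE 0.40, adjusted p = 0.978) and 0.46 for mir-181b-2 (SE 0.28, adjusted p = 0.986), and 0 rows were called.

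The order within each group that has libraries of both kinds follows from the separation of all libraries. It is given as description and adds no support. In uninjected mice mir-181b-2 was at 12.6, 10.4 and 8.25 CPM in the rRNA-rich libraries and at 6.10 and 4.81 CPM in the others. In mouse gRho mice mir-181a-2 was at 281, 400 and 466 CPM in the rRNA-rich libraries and at most at 255 CPM in the other 8. Among rRNA-rich libraries alone, the 3 of uninjected mice (304 to 427 CPM of mir-181a-2) and the 3 of mouse gRho mice (281 to 466 CPM) overlapped.

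The rRNA-rich libraries differed from the others in more than rRNA. Their aligned share was 58.3% to 67.7% of reads against 72.8% to 79.8%, and mature miRNA reads were 42.7% to 52.6% of all reads against 56.7% to 72.6%. Unannotated miRNA reads numbered 1050 to 1923 against 186 to 862. Taken per 1000000 of all reads instead of mature reads, mir-181a-2 ran from 148 to 201 in rRNA-rich libraries and from 61.5 to 161 in the others, and mir-181b-2 from 4.01 to 7.11 and from 1.36 to 4.80, so both then overlapped. On that scale the median log2 fold change of all rows was -0.43, with 0.55 for mir-181a-2 (adjusted p = 0.0606) and 0.56 for mir-181b-2 (adjusted p = 0.0932). mir-181a-1 stood at -0.38, mir-181b-1 at -0.46 and mir-181c at -0.36, close to that median. Without the left eye of mouse gRho mouse 6, mir-181b-2 stood at 0.79 (adjusted p = 0.134), and mir-181a-2 was still called.

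No marker list separated the rRNA-rich libraries from the others in the same way. Sums were taken over rows that do not jump between 2 levels, and their number of the listed loci is given for each list. The summed photoreceptor rows (3 of 3 loci) ran from 198 to 831 CPM in rRNA-rich libraries and from 52.9 to 1101 CPM in the others, and the neuronal rows (12 of 14) from 4657 to 12551 and from 2674 to 13701 CPM. The pigment epithelium and Mueller glia rows (2 of 2) ran from 115 to 298 and from 53.7 to 192 CPM, and the endothelial and mural rows (5 of 5) from 746 to 2490 and from 1083 to 2888 CPM. The muscle rows (3 of 6) ran from 110 to 1149 and from 67.4 to 1090 CPM, the red blood cell rows (3 of 5) from 77.9 to 2285 and from 182 to 1958 CPM. Leukocyte rows (3 of 6) ran from 20.3 to 54.7 and from 20.8 to 67.7 CPM, and surface epithelium, lens and cornea rows (7 of 9) from 80.1 to 146 and from 68.5 to 322 CPM. All lists overlapped, no marker summed was at 0 in all libraries, and 0 rows of these lists were called. The part of any of these measures in the level of the chromosome 2 rows was not tested.

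The ratio of the copies, which does not depend on the scale, showed the same division. mir-181a-2 had 2.00 to 4.30 times the reads of mir-181a-1 in rRNA-rich libraries (median 2.38) and 0.941 to 1.69 times in the others (median 1.25). The ranges did not overlap. mir-181b-2 over mir-181b-1 ran from 0.581 to 1.66 (median 0.716) in rRNA-rich libraries and from 0.160 to 0.754 (median 0.330) in the others. These overlapped, and the highest of the others is the right eye of mouse gRho mouse 1, a library poor in retinal miRNAs; without it the highest was 0.635. The ratio within a pair was less divided: mir-181a-2 over mir-181b-2 ran from 26.2 to 45.6 in rRNA-rich libraries and from 20.5 to 70.1 in the others, and mir-181a-1 over mir-181b-1 from 7.96 to 13.3 and from 5.62 to 14.1.

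**Figure D4:**
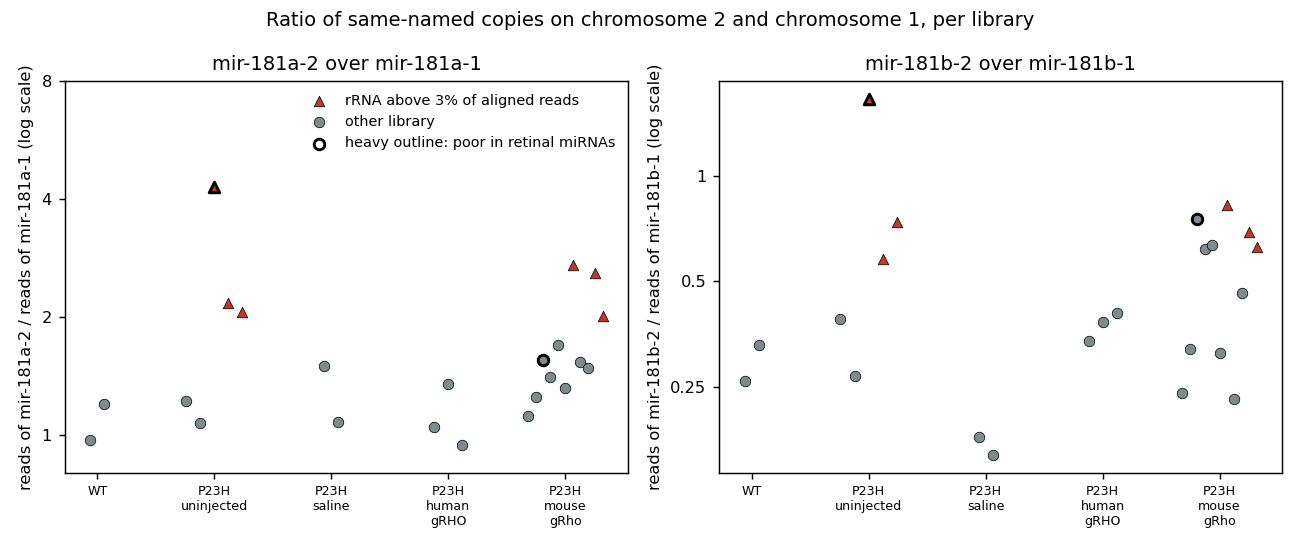
Reads of the chromosome 2 copy divided by reads of the chromosome 1 copy (y axis, log scale) for miR-181a (left) and miR-181b (right), by group, 1 point per library; triangles are the 6 rRNA-rich libraries and heavy outlines the 2 libraries poor in retinal miRNAs. For miR-181a all triangles lie at 2.00 or above and all circles at 1.69 or below, and for miR-181b triangles and circles overlap.

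For comparison, the copies mir-9-1 and mir-9-2 had a ratio of 0.988 to 1.01 over all 23 libraries, while mir-181a-2 over mir-181a-1 ran from 0.941 to 4.30 and mir-181b-2 over mir-181b-1 from 0.160 to 1.66. The mir-181 copies were thus not counted as equal shares of the same reads, as the mir-9 copies nearly were.

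Across libraries the members of the chromosome 1 and chromosome 2 pairs followed their neighbours more closely than their namesakes. The chromosome 8 pair was not measured in this way, since mir-181d jumps between levels. The SD over the 23 libraries of the difference in log2(CPM + 0.5) was 0.30 between mir-181a-1 and mir-181b-1 and 0.37 between mir-181a-2 and mir-181b-2. For the 8 other pairs among the 5 rows it ran from 0.49 (mir-181a-1 and mir-181c) to 0.75 (mir-181b-1 and mir-181b-2). Between the miR-181a copies, which yield the same 5p miRNA, it was 0.54. These values describe 23 libraries that share a protocol and differ in depth, and carry no test.

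The rows most like each member were sought by the same measure over the 15 mice, among those whose mean reached 10 CPM. mir-181b-2 was nearest to mir-181a-2 (SD 0.28), followed by mir-135a-2 (0.43) and mir-325 (0.47), where the median over the rows compared was 0.71. mir-181a-2 was nearest to mir-325 (0.32), mir-669c (0.36) and mir-204 (0.37), against a median of 0.59; mir-181b-2 was below the level needed to be listed here. The chromosome 1 rows had other nearest rows than each other. mir-181b-1 ranked 15 of 125 rows for mir-181a-1 (SD 0.31), and mir-181a-1 ranked 13 of 125 for mir-181b-1. mir-181a-1 was nearest to mir-370 (0.18), mir-7a-1 (0.22) and mir-708 (0.24), against a median of 0.43. mir-181b-1 was nearest to mir-9-2 (0.21), mir-9-1 (0.21) and mir-382 (0.22), against a median of 0.51. mir-181c was nearest to mir-434 (0.19), mir-484 (0.23) and mir-29b-2 (0.25), against a median of 0.52.

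The chromosome 1 rows were low in the 2 libraries poor in retinal miRNAs. mir-181a-1 was at 69.7 CPM in mouse gRho mouse 1 right eye, the lowest of 23, and at 88.1 CPM in uninjected mouse 2 left eye, the third lowest. mir-181b-1 was at 7.02 and 7.59 CPM there, with WT mouse 2 at 5.67 CPM as the only lower library. mir-181c was not low in both: it was at 24.2 CPM in the former, the second highest of 23, and at 13.6 CPM in the latter. mir-181a-2 was at 108 CPM in the former and at 379 CPM in the latter, which is also rRNA-rich.

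Both eyes were sequenced in 8 mice. No mir-181 row passed between right and left eyes: with the mouse as a block, edgeR and DESeq2 each called 0 of 5, beside 0.0% of 330 rows tested. Without adjustment, 0 of the 5 and 9 of all rows had a p under 0.05. The log2 difference, right minus left, was -0.23 (SE 0.19) for mir-181a-1, -0.14 (SE 0.23) for mir-181a-2, -0.17 (SE 0.19) for mir-181b-1, 0.03 (SE 0.16) for mir-181b-2 and 0.05 (SE 0.17) for mir-181c. By CPM, mir-181a-2 was higher in the right eye in 6 of 8 mice (median log2 difference 0.15), against the sign of the fitted value, and mouse gRho mice 1 and 2 were the 2 with the lower right eye. mir-181b-2 was also higher on the right in 6 of 8 mice (median 0.28), mir-181c in 5, and mir-181a-1 and mir-181b-1 in 3 each. Eyes of 1 mouse could still lie far apart. For mir-181a-2 the difference between eyes in CPM ran from -1.33 on the log2 scale (mouse gRho mouse 2) to 0.50 (mouse gRho mouse 3), and for mir-181a-1 from -1.37 (mouse gRho mouse 1) to 0.41 (uninjected mouse 3). In each of these 4 extremes at least 1 of the eyes was rRNA-rich or poor in retinal miRNAs.

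mir-181d, the neighbour of mir-181c on chromosome 8, had another pattern. In 7 libraries its row held 932 to 3964 reads (94.9 to 247 CPM), and in the other 16 it held 1 to 7 reads (0.0815 to 0.622 CPM). No library lay in the gap of 6.41 on the log2 scale between the levels. The row was high in 1 of 2 WT, 1 of 5 uninjected, 1 of 2 saline, 1 of 3 human gRHO and 3 of 11 mouse gRho libraries, so each group has libraries at both levels.

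The level of mir-181d also split eyes of the same mouse. Of the 8 mice with both eyes, 4 had 1 eye at the high and 1 at the low level, and 4 had both eyes at the low level. In uninjected mouse 3 the right eye was high and the left low, and in mouse gRho mouse 3 the left eye was high and the right low. Of the 7 high libraries, 1 is rRNA-rich and 1 is poor in retinal miRNAs. mir-181c in those 7 libraries ran from 3.68 to 26.5 CPM, which are the lowest and the highest of all 23 libraries.

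**Figure D5:**
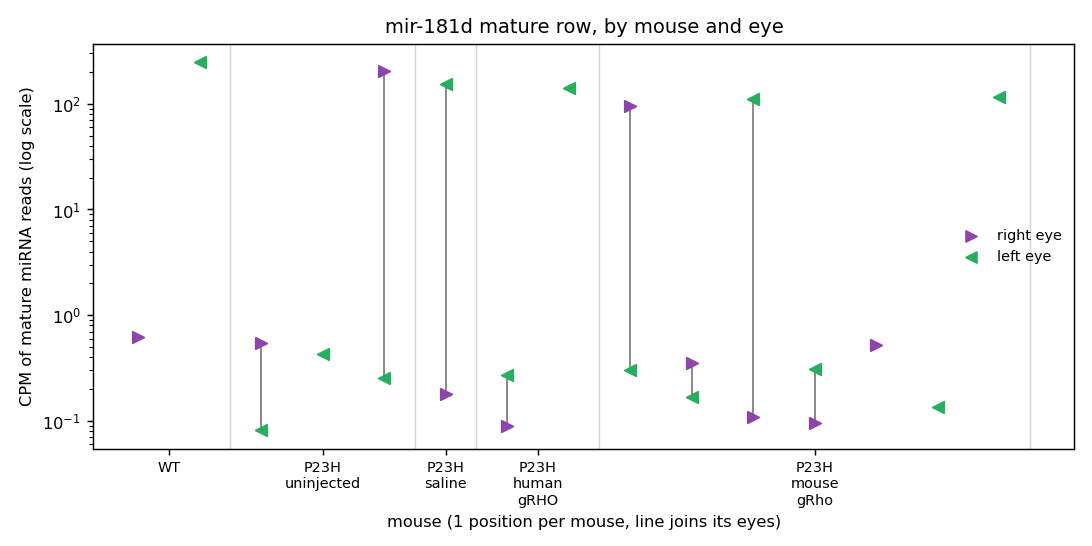
CPM of the mir-181d mature row (y axis, log scale) for each mouse (1 position per mouse on the x axis, by group), with right and left eyes as triangles and a line joining the eyes of a mouse. 7 libraries lie at 94.9 CPM or above and 16 at 0.622 CPM or below, and 4 lines run between the levels.

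65 mature rows of the matrix show such a jump between levels, of 337 that reach 30 reads in a library, and mir-181d is 1 of them. None of the 64 others (0) has the same libraries on each side as mir-181d. The row was therefore not compared between groups as a count of 1 miRNA, and the 5 other members are the family's tested rows.

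Outside the mature rows the family left few reads. mir-181b-1 had 34 stemloop reads in 11 libraries, with at most 10 in a library. mir-181a-2 had 5 precursor reads in 4 libraries and 1 stemloop read, mir-181b-2 had 1 precursor read, and mir-181d had 2 stemloop reads. mir-181a-1 and mir-181c have no row of these classes. Set against 615 to 2251 mature reads of mir-181a-1 in each library, these reads were few.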

How the data were processed

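Small RNA was sequenced from 23 mouse retinas, flash frozen and extracted with Trizol, with libraries made by the NEXT Flex small RNA v3 kit, per the labels' protocols. The authors deposited raw counts of reads per miRNA locus and class, with a second table that counts the reads of each library by alignment class. DESeq2 is named, without a version, in the submitters' processing notes; aligner, annotation and build: not given in the sources used here. Crossmapped reads, as that table names them, were 5.52% to 17.9% of miRNA reads.

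Libraries were summed to 15 mice, taking titles as cage number, ear mark and eye. If this reading is wrong, p-values measure only the spread between these sums, which may be technical. The samples of a group share the leading title number in several groups, so group and cage cannot be told apart. CPM is a locus count per 1000000 mature miRNA reads. edgeR 4.0.16 (quasi-likelihood, robust, TMM) tested rows that reached 10 counts in 3 or more mice, all 5 groups in 1 fit, with Benjamini-Hochberg adjustment and a threshold of 0.05; the eye comparison had the mouse as a block, and the rRNA comparison used 23 libraries. The scripts were tested on simulated data. Two-level rows were left out of the tests: those that reached a count of 30 and whose sorted log2(CPM + 0.5) had a gap of 3.5 or more, or a gap of 2 or more with 2 or more libraries on either side. Alternatives were DESeq2 1.42.0, other scales and filters, and leaving out mice or libraries. The members, lists and rules were chosen with earlier results of these data known. Named rows are the 6 members, and for each the 3 rows with the smallest SD of the log2 difference over mice.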

Additional observations from a re-analysis of the deposited data

Results flagged for a closer look

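Among the 7 mouse gRho mice, mir-181b-2 stood at 15.3 CPM in mouse 6, farther from the others than the range of the group allows for by Dixon's criterion. 10 groups of values were examined in this way, and chance alone gives such a value in about 1 of 20 groups. The mouse has 1 library, a left eye, and that library is rRNA-rich. It was not set apart for mir-181a-2, where it held 400 CPM, the highest of the 7 mice.

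The stemloop row of mir-181b-1, which enters no comparison, held 10 reads in each of 2 mouse gRho libraries, the right eyes of mice 2 and 5, against at most 3 reads in any control library. This difference was not tested.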

How the results depend on the processing

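In the 7 planned comparisons 0 mir-181 rows were called under every alternative run, apart from fits against WT without WT mouse 1. Those leave 1 WT library, assumed to vary like the other groups, so only their effect sizes are given. Leaving out any other mouse gave 0 called mir-181 rows in each comparison. For the rRNA-rich libraries, leaving out each of them gave 1 to 2 called mir-181 rows, the 1 being without the left eye of mouse gRho mouse 6. The share of all rows called under each alternative is not set beside these counts. In that comparison 0 of the 5 rows were called with all reads as the scale, and 0 with the replicate block (mouse as block). Eye differences without the replicate block also gave 0 calls.

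The log2 fold changes below changed sign; all belong to rows that were not called, and the cause was not tested. Without the rRNA-rich libraries, against WT, mir-181a-1 stood at 0.14 and mir-181b-1 at 0.37 in uninjected mice. Against uninjected mice, mouse gRho stood at 0.0014 for mir-181a-2, 0.15 for mir-181b-2, -0.27 for mir-181a-1 and -0.088 for mir-181b-1. Human gRHO stood at 0.073 for mir-181a-2, 0.076 for mir-181b-2 and -0.13 for mir-181b-1, saline at 0.032 for mir-181a-2 and -0.13 for mir-181a-1, and human gRHO against mouse gRho at 0.072 for mir-181a-2. With the term for rRNA-rich libraries, in a fit of libraries in place of mice, mir-181b-1 stood at 0.072 in uninjected mice against WT. mir-181a-2 then stood at 0.14, 0.13 and 0.19 in mouse gRho, human gRHO and saline against uninjected mice, and mir-181b-2 at 0.26 and 0.19 in mouse gRho and human gRHO.

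Without both libraries poor in retinal miRNAs, mir-181a-1 stood at 0.075 and mir-181b-1 at 0.22 in uninjected mice against WT. Mouse gRho against uninjected then stood at -0.031 for mir-181c, 0.15 for mir-181b-2 and -0.095 for mir-181a-1, saline at -0.042 for mir-181a-1, and the rRNA-rich libraries at -0.056 for mir-181a-1. Mature reads without TMM moved the median of all rows against WT from -0.09 to 0.34 in uninjected and from -0.01 to 0.25 in mouse gRho mice. There mir-181a-1 stood at 0.16 and mir-181b-1 at 0.28 in uninjected mice and mir-181a-1 at 0.077 in mouse gRho mice against WT, all below that shift. Against uninjected mice, mouse gRho stood at -0.036 for mir-181c and -0.087 for mir-181a-1, and saline at -0.072 for mir-181c and -0.026 for mir-181a-1.

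mir-181b-1 in uninjected mice against WT stood at 0.036 without the low-count filter, 0.057 with two-level rows kept and 0.023 with libraries as replicates. With two-level rows kept, mir-181a-1 stood at 0.012 in mouse gRho mice against WT, and the rRNA-rich libraries at -0.087 for mir-181c and -0.10 for mir-181a-1. With all reads as the scale, mir-181b-1 stood at 0.068 in human gRHO against mouse gRho, and the rRNA-rich libraries at -0.36 for mir-181c and -0.38 for mir-181a-1; with the sum of mature rows as the scale, they stood at -0.015 for mir-181a-1.

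Leaving out 1 mouse at a time, uninjected against WT ran from -0.24 to 1.70 for mir-181c, from -0.48 to 0.32 for mir-181a-1 and from -0.46 to 0.67 for mir-181b-1. Mouse gRho against WT ran from -0.11 to 1.82 for mir-181c, from -0.39 to 0.38 for mir-181a-1 and from -0.080 to 1.03 for mir-181b-1. Mouse gRho against uninjected ran from -0.0083 to 0.24 for mir-181c, from -0.45 to 0.16 for mir-181b-2 and from -0.19 to 0.25 for mir-181a-1. Saline ran from -0.040 to 0.38 for mir-181a-1. Human gRHO against mouse gRho ran from -0.065 to 0.35 for mir-181c, from -0.53 to 0.087 for mir-181a-2 and from -0.14 to 0.021 for mir-181b-1. Right minus left ran from -0.018 to 0.14 for mir-181c, from -0.036 to 0.11 for mir-181b-2 and from -0.28 to 0.0016 for mir-181b-1. Leaving out 1 rRNA-rich library at a time, the rRNA-rich libraries ran from -0.090 to 0.095 for mir-181c and from -0.072 to 0.099 for mir-181a-1. mir-181b-2 had the fewest reads of the 5 rows, 30 to 114 in a library.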
